A study of Mus musculus with 6 samples.

Results

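The genes examined are those of Leydig cells, the cells between the seminiferous tubules that make testosterone and the peptide hormone encoded by Insl3. The 10 genes are Star, Cyp11a1, Hsd3b1, Hsd3b6, Cyp17a1, Hsd17b3, Insl3, Lhcgr, Srd5a1 and Hsd11b1, and their probe sets were taken by the gene symbol in the array's annotation. Of the 45037 probe sets that are not controls, 10 carried the symbol of a member alone, and they measured 6 of the 10 genes: Star and Cyp11a1 with 3 probe sets each, and Hsd3b1, Cyp17a1, Hsd17b3 and Hsd11b1 with 1 each. Hsd3b6 and Insl3 were annotated only on 3 probe sets that also list other genes, so those values belong to no single gene and are given apart. Lhcgr and Srd5a1 had no listed probe set in the annotation used here and were not analysed here.

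RNA of whole testes from 12-week-old mice was hybridised to 6 Affymetrix arrays, 3 labelled jsd and 3 labelled SCARKO-jsd. Both groups carry jsd (juvenile spermatogonial depletion), a mutation of Utp14b under which spermatogonia of adult mice do not differentiate. In the SCARKO-jsd group a gene was in addition knocked out conditionally in Sertoli cells, which line the tubules and nurse the germ cells. Which Cre driver was used for this, the labels do not say. The comparison asks how testis transcripts differ with that knockout. The SCARKO-jsd group is spelled in 3 ways over its label fields, and the spelling of the sample titles is used. The design text gives 3 mice per group but no label ties an array to a mouse. The p-values therefore rest on the spread between these arrays alone, which may be technical. Values are log2 expression of a probe set, and differences are given as SCARKO-jsd minus jsd throughout.

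In Leydig cells, luteinizing hormone binds the receptor encoded by Lhcgr and raises cyclic AMP, and the StAR protein (Star) then carries cholesterol to the inner mitochondrial membrane. Cyp11a1 cuts the side chain of cholesterol to give pregnenolone, 3-beta-hydroxysteroid dehydrogenases (Hsd3b1 and Hsd3b6 in the mouse testis) and Cyp17a1 carry it on to androstenedione, and Hsd17b3 makes testosterone. Srd5a1 reduces testosterone further, Hsd11b1 interconverts active and inactive glucocorticoid, and Insl3 encodes a relaxin-like hormone that guides testis descent in the fetus.

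No difference between the groups was detected for any measured member. By limma with Benjamini-Hochberg adjustment over all probe sets, 0 of the 10 member probe sets passed an adjusted p of 0.05, and 0 had an unadjusted p under 0.05. Over all 45037 probe sets 126 passed, which is 0.28% (0.124% higher and 0.155% lower in SCARKO-jsd), so a count of 0 among 10 is no result about the members. At an unadjusted p under 0.05 the background was 10.3%. For 7 of the 10 probe sets the 95% interval of the difference lay within 1.5-fold in either direction. It did so for 74.4% of all probe sets, so this count too is no result about the members. For 9 of 10 the interval lay within 2-fold. In a fit of 1 probe set per gene without the 40% dimmest genes, where 390 of 10916 genes (3.57%; 1.78% higher and 1.8% lower) passed, 0 of the 6 members did.

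By their brightest probe set, 4 members were higher and 2 lower in SCARKO-jsd testes, with differences between -0.067 and 0.25. Their median was 0.042, beside 0.044 over all 18193 genes by brightest probe set. In whole-testis RNA, the number of Leydig cells and the RNA per Leydig cell cannot be told apart.

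**Figure D1:**
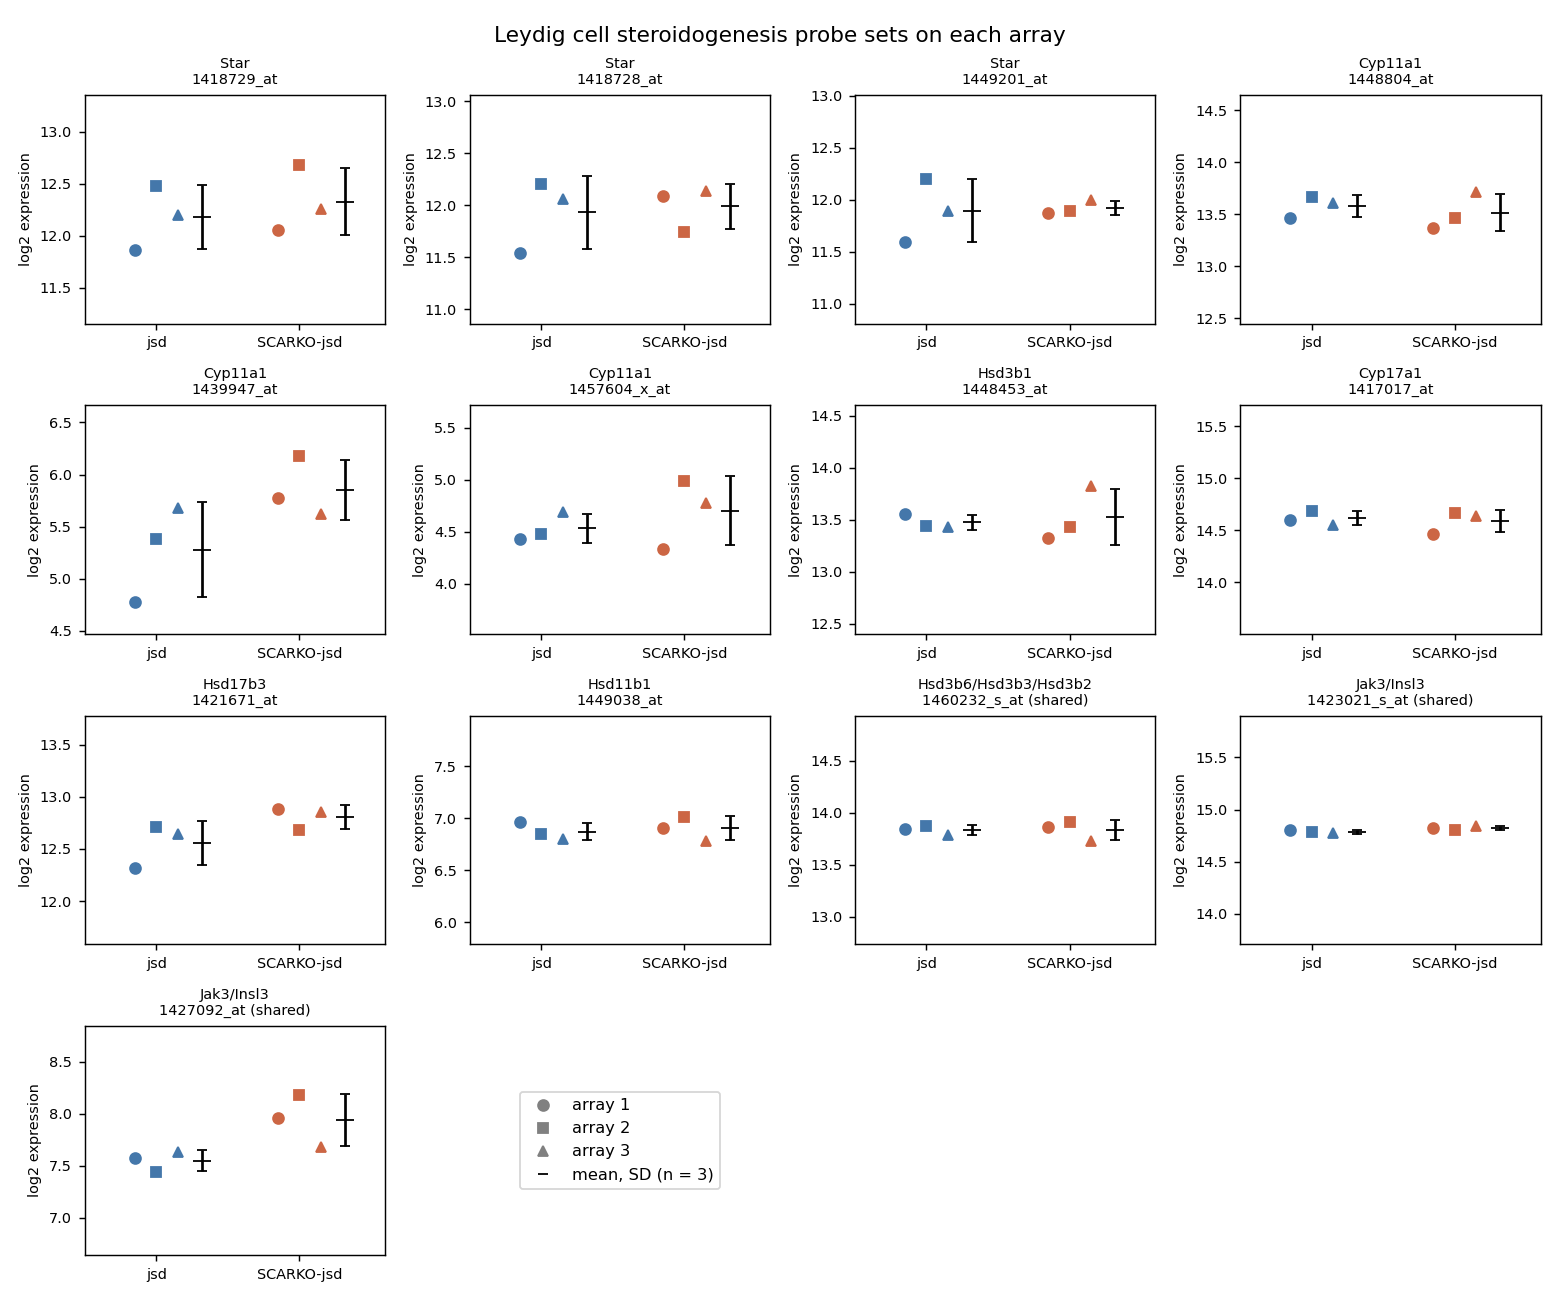
Log2 expression (vertical axes, all of the same span, centred on the probe set's mean) of the 10 member probe sets and the 3 shared ones on each array, jsd in blue and SCARKO-jsd in orange, marker shape giving the array's number and the black bar the mean and SD of 3 arrays. The groups overlap for all 10 member probe sets, and of the 3 shared ones they are apart for 1427092_at only.

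Star, whose protein delivers cholesterol to the mitochondrion, was measured by 3 probe sets. The brightest, 1418729_at, was 11.87, 12.48 and 12.20 on jsd arrays 1, 2 and 3 and 12.06, 12.68 and 12.26 on SCARKO-jsd arrays 1, 2 and 3. Array 1 was the lowest and array 2 the highest of each group, and the groups overlapped. The difference was 0.15 ± 0.21 (SE, n = 3 per group; limma, Benjamini-Hochberg adjusted p = 0.852), with a 95% interval from -0.36 to 0.66. Probe set 1418728_at was 11.54, 12.20 and 12.06 in jsd and 12.09, 11.74 and 12.14 in SCARKO-jsd testes, a difference of 0.056 ± 0.20 (SE; adjusted p = 0.943). The dimmest, 1449201_at, was 11.60, 12.20 and 11.89 in jsd and 11.87, 11.90 and 12.00 in SCARKO-jsd testes, a difference of 0.029 ± 0.16 (SE; adjusted p = 0.964). On all 3 probe sets jsd 1 was the lowest of the 6 arrays. Without it the differences were -0.0080, -0.14 and -0.12 in the same order. Without SCARKO-jsd 3 that of 1418728_at was -0.020 and that of 1449201_at -0.011, so the sign of each probe set turned with more than 1 array.

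The 3 Star probe sets did not follow one another on SCARKO-jsd 2. That array had the highest value of all 6 on 1418729_at and the second lowest on 1418728_at. Over the 6 arrays, which share their hybridisations, the correlation of these probe sets was 0.25, against 0.84 between 1418728_at and 1449201_at and 0.66 between 1418729_at and 1449201_at. On SCARKO-jsd 2 the gap between the 3' and 5' control probe sets of beta-actin was 1.66 log2 units, beside 0.70 to 0.98 on the other 5 arrays, and that of Gapdh was 0.64 beside -0.29 to -0.10. The part of this gap in the Star values was not tested. Without SCARKO-jsd 2 the difference on 1418729_at was -0.025.

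Cyp11a1, which starts steroid synthesis, was measured by a bright probe set and by 2 dim ones. The bright probe set 1448804_at was 13.47, 13.67 and 13.61 in jsd and 13.37, 13.47 and 13.71 in SCARKO-jsd testes, and lay brighter than 99.7% of probe sets by its mean. SCARKO-jsd held both the lowest and the highest array. The difference was -0.067 ± 0.12 (SE; limma, Benjamini-Hochberg adjusted p = 0.880), with an interval from -0.35 to 0.21, and it was 0.0067 without SCARKO-jsd 1. The other probe sets were 1439947_at and 1457604_x_at, whose means of 5.57 and 4.62 lay under the level of the dimmest 40% of probe sets (5.69). On 1439947_at the values were 4.78, 5.38 and 5.67 in jsd and 5.77, 6.18 and 5.62 in SCARKO-jsd testes. Its difference of 0.58 ± 0.26 (SE; adjusted p = 0.516), with an interval from -0.036 to 1.19, was the widest apart of any member probe set, and it was 0.33 without jsd 1. On 1457604_x_at the difference was 0.17 ± 0.18 (SE; adjusted p = 0.803). The 3 probe sets thus disagreed in sign, and none of the differences passed the test. With the mean of the 3 in place of the brightest, Cyp11a1 stood at 0.23 (adjusted p = 0.546).

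Hsd3b1, which turns pregnenolone into progesterone, was 13.56, 13.44 and 13.43 in jsd and 13.32, 13.43 and 13.82 in SCARKO-jsd testes. SCARKO-jsd 3 was the highest of the 6 arrays and SCARKO-jsd 1 the lowest. The difference was 0.050 ± 0.14 (SE; limma, Benjamini-Hochberg adjusted p = 0.927), with an interval from -0.29 to 0.39. Without SCARKO-jsd 3 it was -0.10.

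Its isoform Hsd3b6 was seen only through 1460232_s_at, which is annotated to Hsd3b6, Hsd3b3 and Hsd3b2. In the RefSeq gene table these genes and Hsd3b1 lie side by side on chromosome 3, in the order Hsd3b2, Hsd3b3, Hsd3b6 and Hsd3b1, with no other coding gene between them. The shared probe set was 13.84, 13.88 and 13.79 in jsd and 13.87, 13.91 and 13.73 in SCARKO-jsd testes, a difference of 0.00033 ± 0.084 (SE; limma, Benjamini-Hochberg adjusted p = 0.999), with an interval from -0.20 to 0.20. Probe sets of their own placed Hsd3b2 at 4.17 ± 0.084 and Hsd3b3 at 6.93 ± 0.035 in jsd testes (SD, n = 3), above 14.5% and 58.2% of probe sets. Which of the genes annotated to the shared probe set gives its signal cannot be read from these values. The within-array gap between the shared probe set and Hsd3b1 had a mean of 0.36 ± 0.075 over the jsd arrays and 0.31 ± 0.35 over the SCARKO-jsd arrays (SD, n = 3), where SCARKO-jsd 3, at -0.091, was the only array below 0. The gap differed by -0.050 between the groups (exact permutation test over arrays, two-sided, p = 1, the smallest possible being 0.10), and by 0.15 without SCARKO-jsd 3.

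The stretches before the start sites of Hsd3b1 and Hsd3b6 are shown as a description, and do not bear on which transcript the probes detect. Both are the 150 bases before the start, 5′ to 3′ in the direction of the gene, from RefSeq with build GRCm38.p6, Hsd3b1 from chr3:98859795-98859944 and Hsd3b6 from chr3:98814444-98814593, both on the minus strand. Capitals mark a match to the GATA motif.
Hsd3b1: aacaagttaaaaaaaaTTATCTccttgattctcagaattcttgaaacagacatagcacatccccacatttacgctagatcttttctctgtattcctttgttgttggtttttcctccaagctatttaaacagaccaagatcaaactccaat
Hsd3b6: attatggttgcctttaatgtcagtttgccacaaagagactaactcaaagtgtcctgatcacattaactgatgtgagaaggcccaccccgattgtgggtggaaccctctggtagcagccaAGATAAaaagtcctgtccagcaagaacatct
The motif was searched as AGATAA or TGATAA on both strands of windows of 300 bases, 250 before and 50 after the start. Counted from the start, the match at Hsd3b1 lies at -134 to -129 on the opposite strand and that at Hsd3b6 at -31 to -26 on the strand of the gene. Of the 10 genes, 8 had a window, Cyp11a1 with 2, and GATA letters stood in these 2 genes only, while 18.6% of the 32851 windows of all genes hold them. AAGGTCA, letters that the steroidogenic factor NR5A1 binds, and TATAAA stood in 0 of the 9 windows, beside 4.72% and 13.6% of all windows. These are descriptions of letters in a window, not of binding.

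Cyp17a1, which makes androstenedione, was 14.60, 14.68 and 14.55 in jsd and 14.47, 14.67 and 14.63 in SCARKO-jsd testes. It ranked between 2 and 8 in brightness among the 45037 probe sets of each array. The difference was -0.023 ± 0.091 (SE; limma, Benjamini-Hochberg adjusted p = 0.949), with an interval from -0.24 to 0.20, and without SCARKO-jsd 1 it was 0.038. With each array centred on its median it was 0.021.

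Hsd17b3, the last enzyme on the way to testosterone, had the largest difference among the bright probe sets. It was 12.32, 12.71 and 12.65 in jsd and 12.89, 12.68 and 12.86 in SCARKO-jsd testes. SCARKO-jsd 1 and 3 lay above every jsd array and SCARKO-jsd 2 lay below jsd 2, so the groups overlapped. The difference was 0.25 ± 0.13 (SE; limma, Benjamini-Hochberg adjusted p = 0.586), with an interval from -0.059 to 0.56, that is from 0.960-fold to 1.48-fold. It was 0.13 without jsd 1 and between 0.21 and 0.33 without any other single array.

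Hsd11b1, an enzyme of glucocorticoid metabolism that adult Leydig cells carry, was 6.96, 6.85 and 6.80 in jsd and 6.91, 7.02 and 6.79 in SCARKO-jsd testes, near the middle of the array (brighter than 56.7% of probe sets). SCARKO-jsd held both the lowest and the highest array, so the groups overlapped. The difference was 0.034 ± 0.096 (SE; limma, Benjamini-Hochberg adjusted p = 0.927), with an interval from -0.20 to 0.26.

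**Figure D2:**
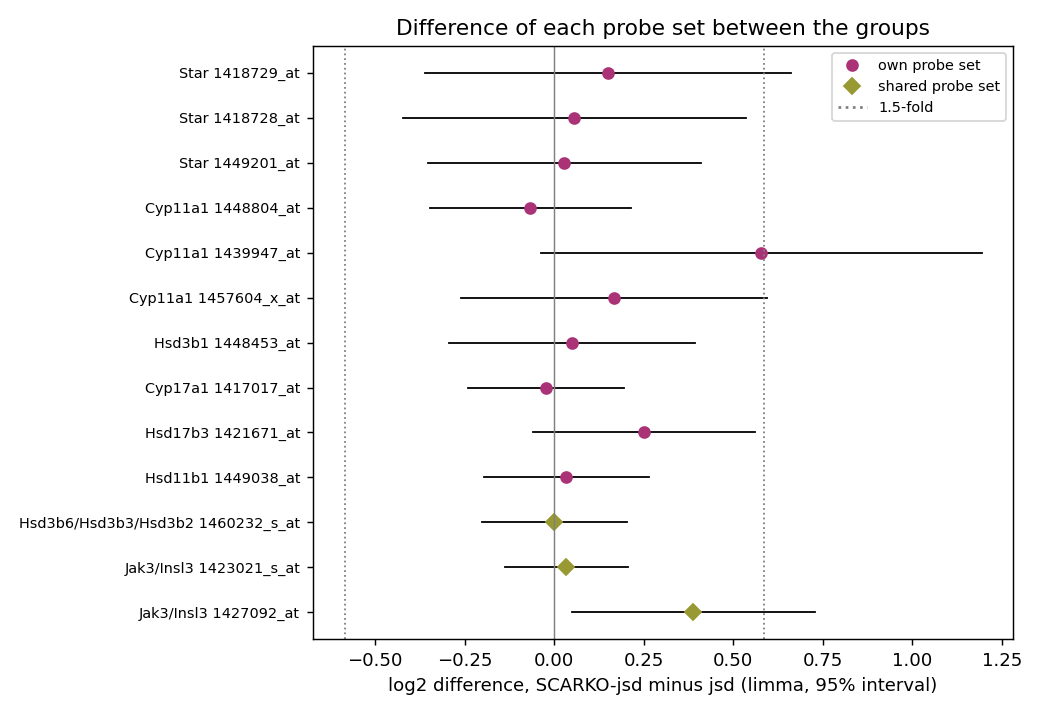
Difference in log2 expression (horizontal axis, SCARKO-jsd minus jsd) of each member probe set (circles) and shared probe set (diamonds), with limma's 95% interval as a line and dotted lines at 1.5-fold. The 10 member intervals include 0, that of the shared probe set 1427092_at (0.050 to 0.73) does not, and the interval of the dim Cyp11a1 probe set 1439947_at reaches to 1.19.

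Insl3 was annotated on 1423021_s_at and 1427092_at, both of which also name Jak3, a kinase of cytokine signalling. In the RefSeq gene table Insl3 lies inside the span of Jak3 on chromosome 8 and both end at the same base. Probe set 1423021_s_at was 14.80, 14.78 and 14.77 in jsd and 14.82, 14.80 and 14.84 in SCARKO-jsd testes, and was the brightest of the 45037 probe sets on each of the 6 arrays. Its difference was 0.034 ± 0.071 (SE; limma, Benjamini-Hochberg adjusted p = 0.900), with an interval from -0.14 to 0.21. Probe set 1427092_at was 7.57, 7.44 and 7.64 in jsd and 7.96, 8.18 and 7.68 in SCARKO-jsd testes, so every SCARKO-jsd array lay above every jsd array, as the groups of 16.9% of all probe sets did not overlap. The difference of 0.39 ± 0.14 (SE) had a 95% interval from 0.050 to 0.73, the only interval among the 13 member and shared probe sets that excludes 0. It did not pass after limma's Benjamini-Hochberg adjustment (adjusted p = 0.410; unadjusted p = 0.0304), and with 1 array left out it lay between 0.27 and 0.52. The within-array gap between 1423021_s_at and the brightest Star probe set differed by -0.12 between the groups (exact permutation test, two-sided, p = 0.800). Since 1423021_s_at hardly varied, this gap follows Star with its sign turned and says nothing about Insl3: after a further quantile normalization the gap differed by -0.14 and Star by 0.14. Both gap comparisons, adjusted by Benjamini-Hochberg over the 2 exact permutation tests, had an adjusted p of 1.

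The spread between replicates shrank with brightness. Quantile normalization, a step of RMA, gives the brightest probes of each array the same values. The median within-group SD was 0.030 for the 10 brightest probe sets, 0.062 for the next up to rank 100, 0.10 from there to rank 1000 and 0.149 beyond. For 1423021_s_at it was 0.018. A further quantile normalization gave 1423021_s_at the same value on every array, which its rank of 1 on each array fixed in advance. That normalization moved the difference of Cyp17a1 from -0.023 to -0.00089. The cause of the small spread at high brightness was not tested. Of the member probe sets, 7 were among the 1000 brightest, from 5 genes and with Star counted 3 times, and for all 7 the within-group SD was above the median of their range of ranks. Of the dimmer ones, set against a range too wide to call alike in brightness, no comparison is made. Star led the bright members, its 3 probe sets having SDs of 0.31, 0.29 and 0.22, larger than for 96.6%, 95.9% and 92.6% of the probe sets in their range of ranks, which ends at 1000. Hsd3b1 (0.19), Hsd17b3 (0.17) and the bright Cyp11a1 probe set (0.15) were larger than 88.9%, 83.4% and 75.4% of them.

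**Figure D3:**
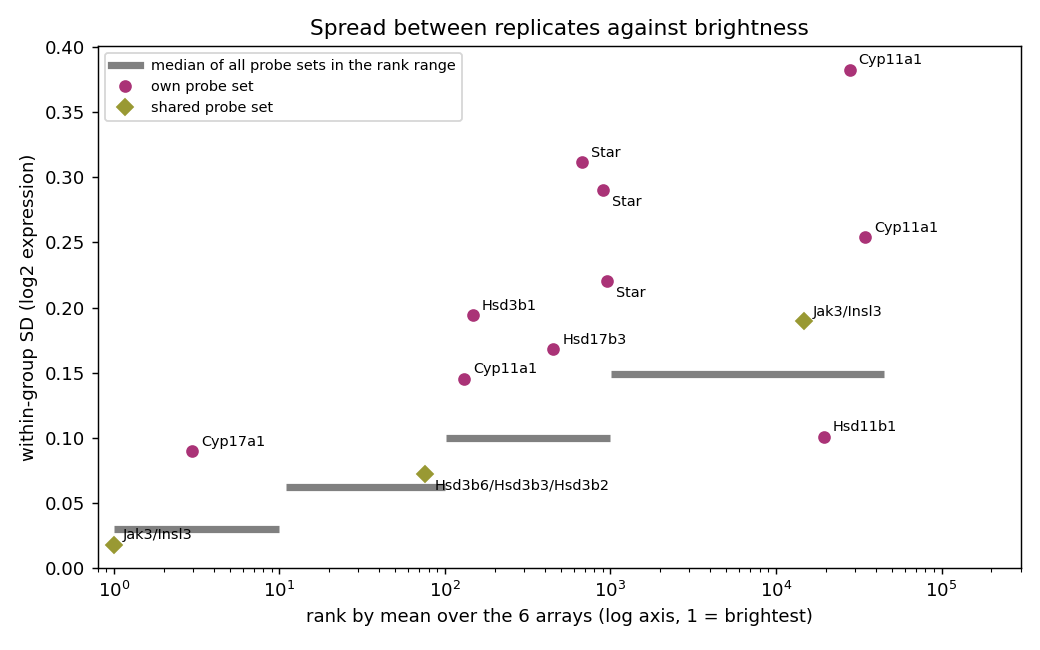
Within-group SD of log2 expression (vertical axis) against the rank of a probe set by its mean over the 6 arrays (horizontal log axis, 1 is the brightest), for the members (circles), the shared probe sets (diamonds) and the median of all probe sets in 4 rank ranges (grey bars). The Star probe sets sit at 0.22 to 0.31, above the grey bar at 0.10, while Cyp17a1 and the brighter Jak3/Insl3 probe set lie at the far left with SDs of 0.090 and 0.018.

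The members did not follow a common pattern over the arrays. Of 15 pairs of members by brightest probe set, Cyp17a1 and Star had the highest correlation (0.65) and Cyp11a1 and Hsd11b1 the lowest (-0.77), each over the same 6 arrays. The mean of the 6 members was 12.13, 12.30 and 12.21 in jsd and 12.17, 12.32 and 12.34 in SCARKO-jsd testes, so array 1 was the lowest in each group. Among 10910 other genes above the dimmest 40%, those whose values followed this mean most closely were Snx19, Slc38a1, Ubxn11, Cebpa and Oxtr, with correlations between 0.988 and 0.998 over the 6 arrays. With so many genes and 6 arrays, such values describe the arrays only. Slc38a1, a glutamine transporter, was 9.31, 10.19 and 9.68 in jsd and 9.55, 10.37 and 10.38 in SCARKO-jsd testes, and Oxtr, the oxytocin receptor, was 10.27, 10.73 and 10.46 in jsd and 10.34, 10.82 and 10.76 in SCARKO-jsd testes.

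Of the measured Leydig markers outside the members, all but Thbs2 were bright in both groups. The prostaglandin D synthase gene Ptgds had a log2 level of 14.60 ± 0.024 in jsd and 14.54 ± 0.043 in SCARKO-jsd (SD, n = 3). Nr5a1, which encodes the steroidogenic factor, had 11.77 ± 0.093 in jsd and 11.74 ± 0.26 in SCARKO-jsd. Of 6 measured Leydig markers outside the members, 0 passed, and the mean of the list lay between 11.05 and 11.23 in jsd and between 11.04 and 11.16 in SCARKO-jsd testes. Thbs2 was dim (4.89 ± 0.13 and 5.01 ± 0.19). The adrenal enzymes Cyp11b1 (4.28 ± 0.085 in jsd) and Cyp11b2 (4.32 ± 0.098) and the receptor Mc2r (4.60 ± 0.065) were dim, which makes 3 of 5 adrenal genes dim. The other two were not: Cyp21a1 stood at 8.71 ± 0.70 in jsd and 8.63 ± 0.54 in SCARKO-jsd, and Mrap, which encodes a partner of the receptor Mc2r, at 10.65 ± 0.33 and 11.15 ± 0.20. Mrap was higher by 0.50 ± 0.19 (SE), without passing (limma, Benjamini-Hochberg adjusted p = 0.435). Its groups did not overlap, as those of 20.5% of all genes by brightest probe set did not. All 4 measured epididymis markers were dim. No marker of Sertoli, myoid, macrophage or endothelial cells passed by limma, of 9, 7, 10 and 8 measured, where 0.484% of all genes by brightest probe set did (0.247% higher, 0.236% lower). At an unadjusted p under 0.05 there were 2, 0, 0 and 2, against 13.2% of all genes. These, all with no overlap, were Wt1 (-0.48 ± 0.094 SE) and Amh (0.33 ± 0.099) of Sertoli cells, opposite in sign, and endothelial Kdr (-0.79 ± 0.17) and Vwf (0.53 ± 0.17). The endothelial list had 7 of 8 genes higher with a median of 0.23. The mean of that list was 7.63, 7.43 and 7.28 in jsd and 7.39, 7.93 and 7.45 in SCARKO-jsd testes. Only SCARKO-jsd 2 lay above every jsd array. The list of early germ cell markers had means of 8.52 to 8.74 in jsd and 9.15 to 9.43 in SCARKO-jsd testes, and 1 of its 8 genes, Sycp3 of the meiotic chromosome axis, rose (1.31 ± 0.14 SE; limma, Benjamini-Hochberg adjusted p = 0.0340). In that list 6 of 8 genes had an unadjusted p under 0.05 and no overlap, beside 13.2% and 20.5% of all genes. The median over the list was 0.75, beside 0.044 over all genes. Besides Sycp3 the 6 were Ddx4 (1.06), Stra8 (0.99), Dazl (0.82), Uchl1 (0.68) and Gfra1 (0.59). The rest of the list, Zbtb16 (-0.060) and Kit (-0.030), did not rise. The part of the cells so marked in the values of the members, and of the pathway genes below, was not tested.

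Cholesterol supply to the steroid pathway was covered by 14 measured genes of 17 listed. None passed by limma at an adjusted p of 0.05, beside the 0.484% of all genes given above. At an unadjusted p under 0.05 there were 2, beside 13.2% of all genes. The same shares of all genes stand beside the counts of the lists below. Scarb1, the receptor that takes up cholesterol from HDL, was higher by 0.14 ± 0.17 (SE) and Tspo, a protein of the outer mitochondrial membrane, by 0.042 ± 0.099. Stard3, a StAR-related protein that binds cholesterol on late endosomes, had the smallest p of the list. It was 9.44, 9.34 and 9.46 in jsd and 10.07, 9.95 and 9.96 in SCARKO-jsd testes, with no overlap (groups of 20.5% of genes did not overlap). The difference was 0.58 ± 0.082 (SE; limma, Benjamini-Hochberg adjusted p = 0.0636), an interval of 0.38 to 0.78, and it was between 0.54 and 0.60 with any 1 array left out. In the fit of 1 probe set per gene without the 40% dimmest genes, Stard3 passed (adjusted p = 0.0141), as did 3.57% of genes. Nceh1, a cholesterol ester hydrolase, was higher by 0.34 ± 0.13 (SE; adjusted p = 0.433).

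Of 4 measured genes for proteins that pass electrons or reducing power to the steroid enzymes (7 listed), 0 passed by limma and 1 had an unadjusted p under 0.05, with a median difference of 0.14. H6pd, which supplies NADPH to Hsd11b1 inside the endoplasmic reticulum, was 9.90, 9.81 and 9.76 in jsd and 9.98, 10.24 and 10.01 in SCARKO-jsd testes (0.25 ± 0.10 SE; limma, Benjamini-Hochberg adjusted p = 0.462). Cyb5a, cytochrome b5, which aids the lyase step of Cyp17a1, was 12.56, 12.53 and 12.55 in jsd and 12.73, 12.75 and 12.59 in SCARKO-jsd testes (0.14 ± 0.082 SE; adjusted p = 0.625). Both genes had no overlap between the groups, as 20.5% of all genes had none. Fdx1, the ferredoxin that serves Cyp11a1, was higher by 0.10 ± 0.088 (SE; adjusted p = 0.762).

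Other enzymes of steroid metabolism numbered 21 measured of 26 listed, of which 10 were dim. By limma 0 passed and 1 had an unadjusted p under 0.05. That gene was Hsd17b1, which makes estradiol and is known from the ovary. It was 6.15, 5.84 and 5.33 in jsd and 4.83, 5.10 and 5.29 in SCARKO-jsd testes, with a mean below the level of the dimmest 40% of probe sets and a difference of -0.70 ± 0.23 (SE; limma, Benjamini-Hochberg adjusted p = 0.351). Hsd3b7, an enzyme of bile acid synthesis, was higher by 0.19 ± 0.081 (SE; adjusted p = 0.509). Sult1e1, the estrogen sulfotransferase, had a log2 level of 13.05 ± 0.33 in jsd and 13.22 ± 0.25 in SCARKO-jsd (SD, n = 3). Akr1c14, a 3-alpha-hydroxysteroid dehydrogenase, had 7.16 ± 0.62 in jsd and 7.37 ± 0.67 in SCARKO-jsd.

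For signalling from the luteinizing hormone receptor through cyclic AMP, the transcripts of 25 genes of 26 listed were measured. None passed by limma, and 3 had an unadjusted p under 0.05. The type II regulatory subunits of protein kinase A had the smallest p, and the third gene was Pde8b (0.33), a phosphodiesterase of cyclic AMP. Prkar2a was 9.29, 9.17 and 9.40 in jsd and 10.00, 9.68 and 10.07 in SCARKO-jsd testes, with no overlap (20.5% of all genes had none). The difference was 0.63 ± 0.13 (SE; limma, Benjamini-Hochberg adjusted p = 0.154). Prkar2a passed in the fit of 1 probe set per gene without the dimmest (adjusted p = 0.0403), as did 3.57% of genes. It also passed without SCARKO-jsd 2 (0.0223). Another bright probe set of Prkar2a, 1452915_at, gave 0.71. With the mean of its 4 probe sets it was 0.41. Prkar2b was 9.28, 9.63 and 10.08 in jsd and 10.43, 10.49 and 10.23 in SCARKO-jsd testes (0.72 ± 0.20 SE; adjusted p = 0.287). The type I subunits Prkar1a (-0.14 ± 0.11 SE) and Prkar1b (-0.081 ± 0.089) were lower without passing. The catalytic subunit Prkaca was higher by 0.035 ± 0.085 (SE) and Gnas, the G protein subunit that couples the receptor to cyclic AMP, lower by 0.036 ± 0.11.

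Of 18 measured transcription factors that act in Leydig cells (19 listed), 0 passed by limma and 1 had an unadjusted p under 0.05. It was Nr0b1, which encodes DAX1, a repressor of steroidogenic genes that Sertoli cells also express. Nr0b1 was 10.55, 10.38 and 10.13 in jsd and 9.48, 10.16 and 9.62 in SCARKO-jsd testes, overlapping through SCARKO-jsd 2, with a difference of -0.60 ± 0.20 (SE; limma, Benjamini-Hochberg adjusted p = 0.378). Without that array it was -0.80 and passed (0.0434). Mef2a was lower by 0.15 ± 0.080 (SE; adjusted p = 0.596) by its brightest probe set, which had the smallest of 6 differences, all lower. The largest was -0.71 ± 0.66 (SE; adjusted p = 0.776) on 1442623_at. That probe set was 8.03, 8.16 and 9.03 in jsd and 8.86, 6.22 and 8.02 in SCARKO-jsd testes. By the mean of its probe sets Mef2a stood at -0.41 (adjusted p = 0.387). Gata4 (-0.13) and Nr4a1 (0.36), which act on Star and other steroidogenic genes, did not pass either.

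Growth signals that reach Leydig cells, 20 measured of 22 listed, held 0 genes that passed by limma. At an unadjusted p under 0.05 there were 5, beside 13.2% of all genes. Genes of hedgehog signalling, through which Dhh of Sertoli cells acts on Leydig cells, had the smallest p. Smo, the signal transducer of the pathway, was 9.43, 9.41 and 9.49 in jsd and 9.87, 10.00 and 9.98 in SCARKO-jsd testes (0.51 ± 0.080 SE; limma, Benjamini-Hochberg adjusted p = 0.0821), and another probe set, 1427048_at, gave 0.40, while the dim 1442215_at gave -0.032. Hhip, a membrane protein that binds hedgehog ligands, was 7.57, 7.43 and 7.50 in jsd and 7.02, 6.84 and 6.67 in SCARKO-jsd testes (-0.66 ± 0.11 SE; adjusted p = 0.0981). In the fit of 1 probe set per gene without the 40% dimmest, Smo (adjusted p = 0.0198), Hhip (0.0212) and Pdgfa (0.0376) passed, as did 3.57% of genes. Pdgfa, a growth factor of Leydig precursors, was higher by 0.68. By the mean of the probe sets of a gene, 0 genes of the list passed. Smo was then 0.29 (limma, Benjamini-Hochberg adjusted p = 0.106) and Hhip -0.58 (0.103). The ligand Dhh (-0.11 ± 0.097 SE) and the target genes Ptch1 (-0.20 ± 0.11) and Gli1 (-0.18 ± 0.14) were lower without passing. Lists of this kind overlap: Dhh, Inhbb and Amh also mark Sertoli cells, and Pdgfra and Igf1 were counted among the Leydig markers.

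**Figure D4:**
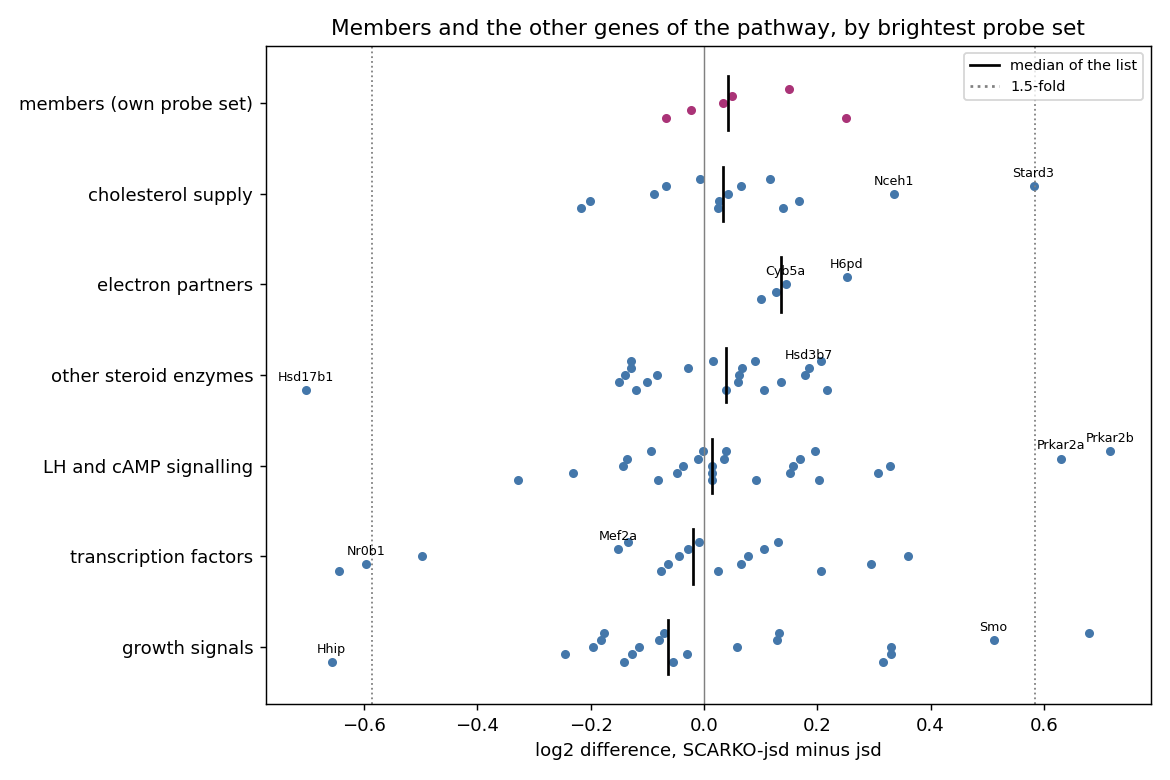
Difference in log2 expression (horizontal axis, SCARKO-jsd minus jsd) of the 6 members and of each gene of the pathway lists by its brightest probe set, 1 point per gene, with the list's median as a black line and dotted lines at 1.5-fold. The members lie between -0.067 and 0.25, and the labelled genes are the 2 of each list with the smallest p, among them Stard3 at 0.58 and Hhip at -0.66.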

How the data were processed

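The deposited log2 values of each probe set come from RMA (affy), as the submitters' processing notes state without a version. They ran from 2.58 to 14.84, with array medians of 6.26 to 6.41. The platform annotation, possibly outdated, named 1 gene for 34945 probe sets, several for 932 (which name no single gene here) and none for 9160, besides 64 controls. Gene names, neighbours and promoters came from RefSeq (GRCm38.p6).

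Each probe set was tested with limma 3.58.1 in R 4.3.3 (lmFit and eBayes without trend, no filter on dim values, genotype as the only term, two-sided), with Benjamini-Hochberg adjustment over 45037 probe sets. The code was checked on simulated data first. In lists, a gene is its brightest probe set by mean. Of 3 planned gap comparisons, that of Hsd17b3 with Srd5a1 was not run. The number of arrays limits the precision. SCARKO-jsd 2 stood apart from the rest. Its highest correlation with another array was 0.975, beside 0.995 to 0.996 for the others. Its array weight was 0.24, beside 0.75 to 2.38.

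Named are all member probe sets, up to 4 called genes of each list or otherwise the 2 with the smallest p, 2 genes of a marker list beside a result, and the 5 genes closest to the members' mean. Further genes were chosen after their values were seen. Members and lists were chosen with earlier results of these data known. The gene targeted by the knockout is not reported here. Alternatives covered probe set summaries, filters, scaling, variance models, thresholds, a replicate block and each array left out. Figures used matplotlib 3.10.9 in Python 3.11.15.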

Additional observations from a re-analysis of the deposited data

How the results depend on the processing

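No member probe set passed under any of the 19 alternatives run: other summaries per gene, filters on the dimmest 40% or 60%, other scalings, trend and robust variance, array weights by the gene-by-gene method (the default did not converge), a replicate block, other thresholds, each array left out and, chosen after seeing the data, the shared probe sets counted as members. The median member difference lay between -0.024 and 0.095. Of all probe sets 126 passed, against 412 genes with the brightest probe set per gene, 390 without the 40% dimmest of these and 346 with the mean of probe sets. It was 63 with median centring, 215 with trend and robust variance, 1269 with array weights, 15 and 372 at thresholds of 0.01 and 0.1, and 0 to 627 with 1 array left out, highest without SCARKO-jsd 2 and 0 without jsd 1 (limma; 2959 at an unadjusted p under 0.05). With the replicate number as a block 0 passed (limma; 4141 unadjusted), but the numbers share no stated source: same-numbered deviations correlated at -0.27, 0.24 and 0.35, and 2 of 6 arrays matched best with their own number. The cholesterol supply list had 1 call with either brightest probe set summary, the mean, the 60% filter, trend and robust variance, array weights, a threshold of 0.1, and 0 to 1 with 1 array left out. LH and cAMP signalling had 1 with either brightest summary and array weights, and 0 to 1 with 1 array left out. Transcription factors had 1 with array weights and 0 to 1 with 1 array left out. Growth signals had 3 with either brightest summary and array weights, and 2 at 0.1. The cause was not tested.

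Signs turned for differences near 0. With the mean of probe sets Cyp11a1 was 0.23, and the gap of the Jak3/Insl3 mean to the Star mean was 0.13. That Jak3/Insl3 mean takes in 1427092_at, which differed by 0.39, besides 1423021_s_at at 0.034. With median centring Cyp17a1 was 0.021. With array weights Cyp11a1 1448804_at was 0.037 and Hsd11b1 -0.051. With 1 array left out, the range was -0.025 to 0.30 for Star 1418729_at, -0.14 to 0.19 for 1418728_at, -0.12 to 0.18 for 1449201_at, -0.16 to 0.0067 for Cyp11a1 1448804_at, -0.10 to 0.15 for Hsd3b1, -0.063 to 0.038 for Cyp17a1 and -0.023 to 0.093 for Hsd11b1. The gap of the shared probe set 1460232_s_at to Hsd3b1 ranged from -0.17 to 0.15 and that of 1423021_s_at to Star, which mirrors Star, from -0.26 to 0.069.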
